A study of Oryza sativa with 8 samples.

Results

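The 9 genes described here encode Aux/IAA proteins of rice: IAA1 (Os01g0178500), IAA6 (Os01g0741900), IAA9 (Os02g0805100), IAA11 (Os03g0633500), IAA13 (Os03g0742900), IAA20 (Os06g0166500), IAA23 (Os06g0597000), IAA30 (Os12g0601300) and IAA31 (Os12g0601400). They were chosen by locus, as named members of the family, and all 9 had at least 1 probe among the 29689 rice loci on the array. The RNA came from whole roots of the rice cultivar Koshihikari after 10 days of growth in 1 mM ammonium chloride (4 arrays) or in 0.005 mM ammonium chloride (4 arrays), with 1 biological replicate on each one-colour Cy3 array. No other treatment, genotype or age is given in the labels.

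Aux/IAA proteins are short-lived nuclear repressors of the auxin response. They bind auxin response factors (ARFs), the transcription factors that sit on auxin-regulated promoters, and recruit a corepressor to them. Auxin acts as a molecular glue between an Aux/IAA protein and a receptor of the TIR1/AFB type, after which the repressor is degraded and the ARF is released. Many Aux/IAA genes are themselves switched on by auxin, so that the response feeds back on itself. In rice roots, mutations that stabilise IAA11 or IAA13 are known to block lateral root formation, and a stabilised IAA23 disturbs the quiescent centre of the root tip.

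At 1 mM ammonium, IAA23, IAA31, IAA13 and IAA30 rose and IAA20 fell, while IAA1, IAA6, IAA9 and IAA11 did not pass the test (limma, adjusted p under 0.05 over all 24981 units tested). In whole roots, more cells of a type and more RNA per cell cannot be told apart. A unit is a locus, or a probe that carries no locus name. All changes were below 2-fold: the most, for IAA23, was 1.85-fold, and the fall of IAA20 left 0.689 of the level at 0.005 mM. Only IAA23 (higher) and IAA20 (lower) kept their call under all 5 ways of scaling the arrays to one another. Without scaling and with spike-in scaling all changes moved downward. Those 2 settings therefore worked against higher calls and for lower ones such as that of IAA20. The calls of IAA31, IAA13 and IAA30 ended without scaling or with spike-in scaling, and that of IAA13 also with quantile normalization, while IAA30 turned to -0.01 without scaling and -0.12 with spike-in scaling.

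The members thus held 4 higher calls of 9 (44.4%), against 32.2% of all units called higher, and 1 lower call of 9 (11.1%), against 43.8% of all units called lower. The lower calls depended on the scaling and the probe: they were 4 of 9 with spike-in scaling (64.4% of all units), 2 of 9 without scaling (59% of all units) and 2 of 9 with the mean of each gene's probes (44.3% of all units). The higher calls were 1 of 9 with spike-in scaling (16.1% of all units) and 1 of 9 without scaling (19.6% of all units). The 1 mM and 0.005 mM arrays did not overlap for 4 of the 9 members (44.4%), against 71.6% of all units. The median absolute log2 change was 0.26 for the members and 0.41 over all units. No member changed at least 2-fold, whereas 18.5% of all units were called with a change of that size.

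Between 81.4% and 85.1% of the spots other than controls were well above background on each array, and none of those spots was saturated. Each member was well above background on all 8 arrays, and no spot of a member carried an outlier flag. All 4 arrays of a group lay on 1 slide and shared 1 scan, so the effect of the slide or scan and that of ammonium cannot be told apart anywhere below. The array's 75th percentile stood lower against 7 added control RNA probes in the 1 mM group than in the 0.005 mM group (means of -1.03 and -0.65 log2 units), and spike-in scaling therefore moved the median change of all units by -0.38, to -0.47. Leaving the arrays unscaled moved it by -0.27. Levels below are log2 signals relative to the 75th percentile of the same array, and changes are 1 mM minus 0.005 mM on that scale, ± SE from limma with n = 4 per group. Levels of different genes come from different probes and are not compared. The number of arrays limits the precision, and the median SE over all units was 0.066.

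**Figure D1:**
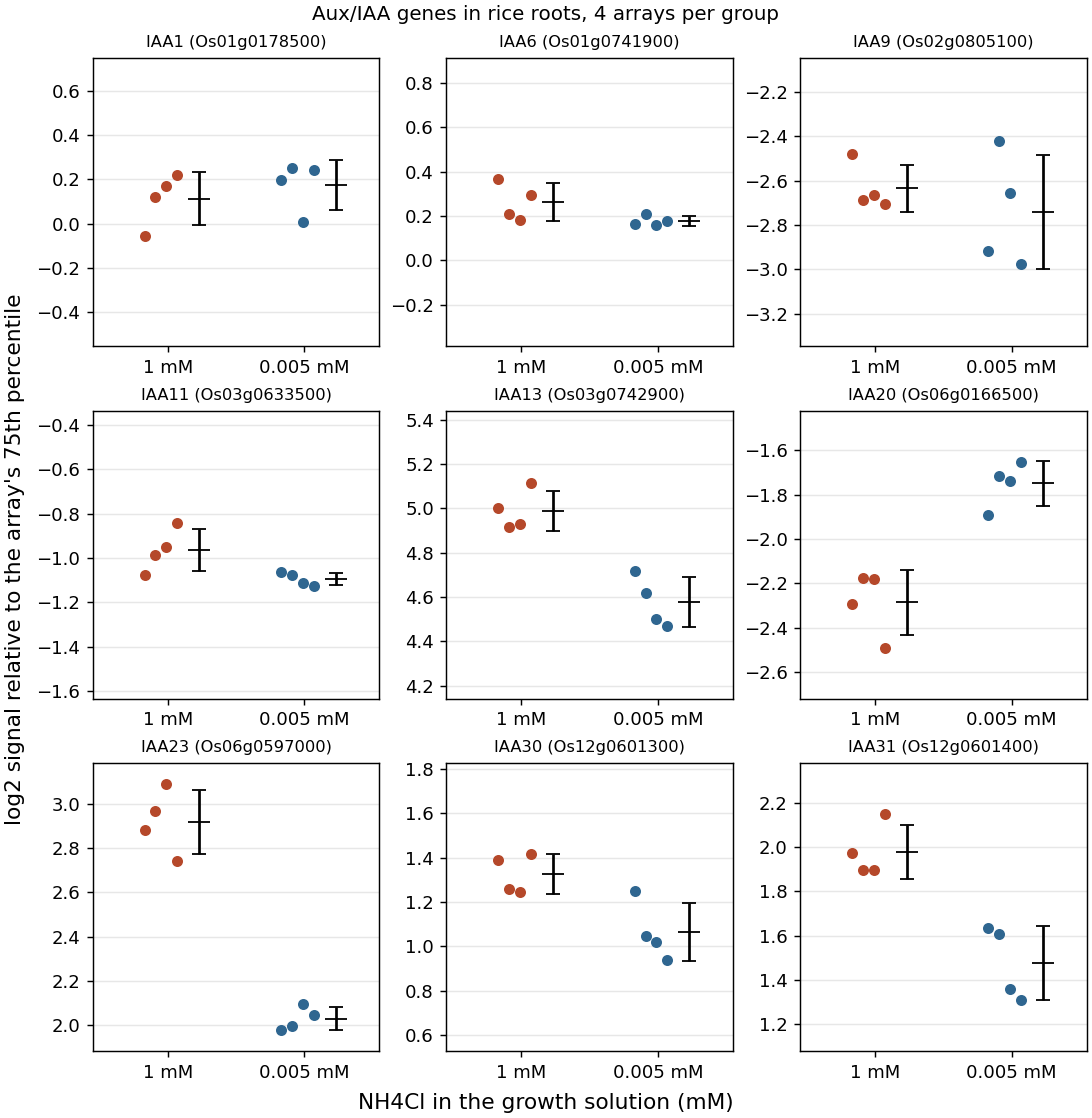
Log2 signal relative to the array's 75th percentile (vertical axis, 1.3 log2 units high in each panel) of the 9 Aux/IAA genes on the 4 arrays at 1 mM and the 4 arrays at 0.005 mM NH4Cl (horizontal axis). Each point is an array and the black bar is the mean ± SD. The groups are separate for IAA13, IAA20, IAA23 and IAA31 and overlap for the other 5 genes.

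IAA23 had the largest absolute change of the 9 genes. Its levels were 2.88, 2.96, 3.09 and 2.74 on the 1 mM arrays, against 1.98, 2.0, 2.09 and 2.04 on the 0.005 mM arrays. Every 1 mM array lay above every 0.005 mM array, with a gap of 0.65 between the nearest 2. The group means were 2.92 ± 0.15 at 1 mM and 2.03 ± 0.05 at 0.005 mM (SD, n = 4 each), and the change was 0.89 ± 0.07 (95% interval 0.72 to 1.06, limma adjusted p = 9.81e-06). Over all units, 21.8% had a larger absolute change. The two-sided exact permutation test over the arrays gave p = 0.0286, the smallest that 4 against 4 arrays allow. The change was 0.51 with spike-in scaling and 0.62 without scaling, and it lay between 0.83 and 0.95 when each array was left out in turn.

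IAA20 fell by the probe that stands for its locus, with the arrays scaled to the 75th percentile. With those choices no other member was called lower, whereas 3 further probes of IAA1 were, as described below. IAA20 had levels of -2.29, -2.18, -2.18 and -2.49 on the 1 mM arrays, against -1.89, -1.71, -1.74 and -1.65 on the 0.005 mM arrays. All 1 mM arrays lay below all 0.005 mM arrays, replicate 4 at 1 mM being the lowest and replicate 4 at 0.005 mM the highest. The change was -0.54 ± 0.08 (95% interval -0.73 to -0.35, limma adjusted p = 0.000429), and the exact permutation p was again 0.0286. With spike-in scaling IAA20 changed by -0.92, and without scaling by -0.81.

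IAA31 and IAA30 are neighbours on chromosome 12, with no gene between them in the RefSeq gene table. The levels of IAA31 were 1.97, 1.89, 1.89 and 2.15 on the 1 mM arrays, against 1.63, 1.61, 1.36 and 1.31 on the 0.005 mM arrays. The groups were separate, and the 0.005 mM arrays fell into a higher pair (replicates 1 and 2) and a lower pair (replicates 3 and 4). IAA31 rose by 0.50 ± 0.09 (limma adjusted p = 0.00133, exact permutation p = 0.0286), a call that was lost with spike-in scaling, at 0.12 (limma adjusted p = 0.297), and without scaling, at 0.23 (limma adjusted p = 0.0969).

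IAA30 had levels of 1.39, 1.26, 1.24 and 1.42 on the 1 mM arrays, against 1.25, 1.05, 1.02 and 0.94 on the 0.005 mM arrays. The groups overlapped slightly, because replicate 1 at 0.005 mM lay between the lower 2 arrays of the 1 mM group. IAA30 rose by 0.26 ± 0.08 by limma (adjusted p = 0.0123), but the exact permutation test did not pass (p = 0.0571). The direction itself was not kept across scalings. The difference between the neighbours on the same array, IAA31 minus IAA30, was 0.65 ± 0.06 at 1 mM and 0.41 ± 0.10 at 0.005 mM (SD, n = 4 each). That gap widened by 0.24 (exact permutation p = 0.0286, adjusted over 2 pairs of neighbours p = 0.0572), and the arrays of the 2 groups did not overlap in it (0.58 to 0.73 at 1 mM and 0.34 to 0.56 at 0.005 mM). The unadjusted p is the smallest that 4 against 4 arrays allow, so with 2 pairs the adjusted value could pass only if the other pair reached that minimum too, and missing the threshold says nothing about the size of the difference. Differences within an array do not move with its scaling factor.

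IAA13, one of the lateral root genes, rose with 75th percentile scaling. Its levels were 5.0, 4.91, 4.93 and 5.11 on the 1 mM arrays, against 4.72, 4.62, 4.50 and 4.47 on the 0.005 mM arrays. The 1 mM arrays all lay higher, by at least 0.20. IAA13 rose by 0.41 ± 0.07 (limma adjusted p = 0.000722, exact permutation p = 0.0286). This call depended on scaling: the change was 0.05 with quantile normalization (limma adjusted p = 0.575), 0.03 with spike-in scaling (limma adjusted p = 0.75) and 0.14 without scaling (limma adjusted p = 0.2).

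IAA11, the other lateral root gene of this set, stood just outside the threshold. Its levels were -1.08, -0.99, -0.95 and -0.84 on the 1 mM arrays, against -1.06, -1.08, -1.11 and -1.13 on the 0.005 mM arrays. Of the 1 mM arrays 3 lay above the whole 0.005 mM group, while replicate 1 lay within it. The change was 0.13 ± 0.05 (limma adjusted p = 0.0502, exact permutation p = 0.0571). It was 0.17 without replicate 1 at 1 mM (limma adjusted p = 0.0124), and -0.25 with spike-in scaling (limma adjusted p = 0.00578), where it was called lower.

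IAA12 (Os03g0633800) lies beside IAA11 on chromosome 3, also with no gene between them in that table. IAA12 rose by 0.25 ± 0.08 (limma adjusted p = 0.0186), a direction that turned to -0.13 with spike-in scaling and -0.02 without scaling. The difference IAA11 minus IAA12 was -1.38 ± 0.08 at 1 mM and -1.26 ± 0.14 at 0.005 mM (SD, n = 4 each), and its change of -0.12 did not pass (exact permutation p = 0.171).

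IAA6, IAA9 and IAA1 did not pass the test by the probe that stands for each locus. IAA6, which has been linked to drought tolerance and tillering in rice, had levels of 0.37, 0.21, 0.18 and 0.29 on the 1 mM arrays, against 0.16, 0.21, 0.16 and 0.18 on the 0.005 mM arrays. The groups overlapped, and the change of 0.09 ± 0.05 had a 95% interval of -0.02 to 0.20 (limma adjusted p = 0.135). With spike-in scaling IAA6 was called lower at -0.29 (limma adjusted p = 0.0166).

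IAA9 had levels of -2.48, -2.69, -2.67 and -2.71 on the 1 mM arrays, against -2.92, -2.42, -2.65 and -2.98 on the 0.005 mM arrays. The 0.005 mM arrays enclosed the whole 1 mM group and had the widest spread of any member, with an SD of 0.26. The change was 0.11 ± 0.12 (95% interval -0.18 to 0.39, limma adjusted p = 0.453). A rise or a fall within that interval is compatible with these arrays.

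IAA1, whose overexpression is known to alter auxin and brassinosteroid responses in rice, had 4 probes that disagreed. Its brightest probe, assigned by the array to transcript Os01t0178500-01, had levels of -0.06, 0.12, 0.17 and 0.22 on the 1 mM arrays, against 0.20, 0.25, 0.01 and 0.24 on the 0.005 mM arrays. These overlapped, with a change of -0.06 ± 0.08 (limma adjusted p = 0.487). The 3 other probes are all assigned to transcript Os01t0178500-02, and all 3 were called lower when every probe was tested as its own unit.

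The first of these, AK069242, had levels of -0.25, -0.13, -0.13 and -0.12 on the 1 mM arrays, against 0.19, 0.33, 0.13 and 0.28 on the 0.005 mM arrays. The groups were separate, and the probe changed by -0.39 ± 0.05 (limma adjusted p = 0.000234). The probe AK109373 changed by -0.43 ± 0.06 (limma adjusted p = 0.000148), also with separate groups. The probe AK100800 changed by -0.25 ± 0.08 (limma adjusted p = 0.0152). Its groups overlapped in replicate 3 at 1 mM, which stood at 0.15, against 0.14 to 0.24 on the 0.005 mM arrays.

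On the same array, AK069242 minus the brightest probe stood at -0.27 ± 0.06 at 1 mM and 0.06 ± 0.05 at 0.005 mM (SD, n = 4 each). The groups were separate for this difference and for those of the other 2 probes, which changed by -0.36 (AK109373) and -0.19 (AK100800). Each had an exact permutation p of 0.0286, which became 0.0667 when adjusted over the 7 probe pairs compared among the members. With only 3 of 7 pairs at the smallest p the design allows, 0.0667 is the lowest adjusted value they could take. Missing the threshold thus rests on the number of arrays and on the other pairs, and says nothing about the size of the differences. All 3 differences subtract the same brightest probe, so they are not independent of one another. With the mean of its 4 probes in place of the brightest, IAA1 was called lower at -0.28 (limma adjusted p = 0.00309), as it was without scaling at -0.33 and with spike-in scaling at -0.44.

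The probes of the other 2 genes with several probes gave like values. The 4 probes of IAA13, on transcripts 01 and 03, changed by 0.39 to 0.41, and the 2 probes of IAA23 by 0.85 and 0.89. Their probe pairs differed by -0.04 to 0.002 in change, with exact permutation p between 0.314 and 0.914. Of the 16 probes of the members, 9 were called higher and 4 lower (81.2%), against 76.9% of all 35953 probes called in either direction. IAA11 was among the 9, at an adjusted p of 0.0481 over probes by limma.

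**Figure D2:**
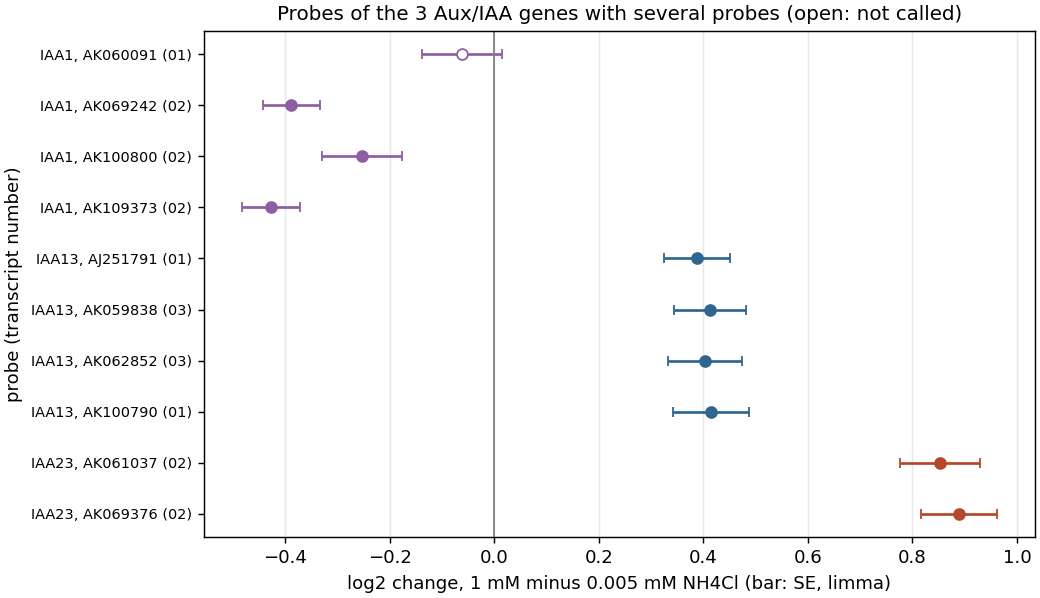
Log2 change, 1 mM minus 0.005 mM NH4Cl (horizontal axis), of every probe of IAA1, IAA13 and IAA23 (vertical axis, with the transcript number the array assigns). Points are limma estimates from 4 arrays per group, bars are SE, and open points were not called. The probe of IAA1 on transcript 01 lies at -0.06 and its 3 others between -0.43 and -0.25, while the probes of IAA13 and of IAA23 lie together.

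**Figure D3:**
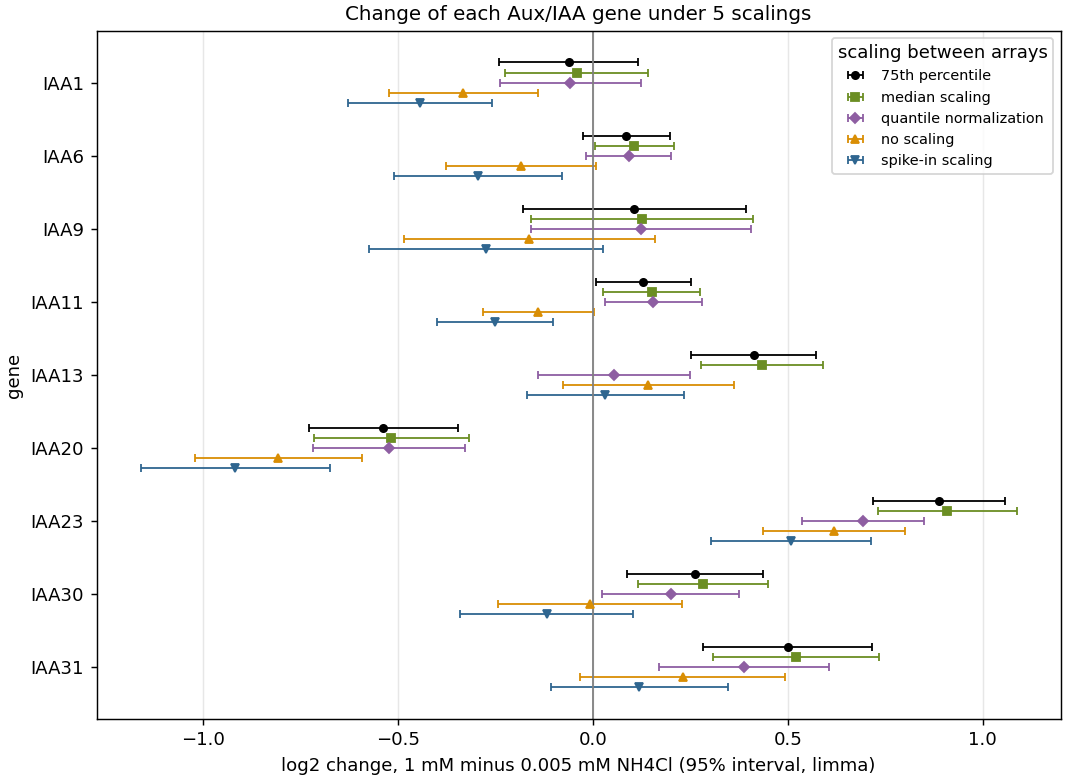
Log2 change, 1 mM minus 0.005 mM NH4Cl (horizontal axis), of each Aux/IAA gene (vertical axis) under 5 scalings between arrays, with 95% intervals from limma. IAA23 stays above 0 (0.51 to 0.91) and IAA20 below 0 (-0.92 to -0.52) under all 5. IAA6, IAA9, IAA11 and IAA30 lie on both sides of 0.

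The plot of changes by scaling shows how far each direction rests on the scale factor. Under the scalings that subtract 1 value per array, the changes must shift together and keep their order. Set against the median change of all units, they ran from -0.45 for IAA20 and 0.03 for IAA1 to 0.50 for IAA13, 0.59 for IAA31 and 0.98 for IAA23 with 75th percentile scaling. With spike-in scaling these were -0.45, 0.03, 0.50, 0.59 and 0.98 as well, as such a subtraction requires. Quantile normalization can alter them, and gave -0.41 for IAA20, 0.06 for IAA1, 0.17 for IAA13, 0.50 for IAA31 and 0.81 for IAA23.

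The authors' deposited table of spots with a q-value under 0.05 lists 11 of the 16 spots of the members, 7 with a positive and 4 with a negative log2 ratio of sufficient over deficient roots. Sufficient was taken to mean 1 mM. The share of all spots on that list was not counted, so 11 of 16 is not read as a result about the members. In the authors' deposited table IAA23 has log2 ratios of 0.76 and 0.72, IAA31 of 0.36, IAA13 of 0.25 to 0.28 and IAA20 of -0.67. For IAA1 the authors' deposited table lists the 3 probes assigned to transcript 02, at -0.56 to -0.38, and not the probe assigned to transcript 01. The probes of IAA6, IAA9, IAA11 and IAA30 are not in the authors' deposited table. All listed ratios lay below the changes given here for the same probes, by a like amount for each.

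Larger changes were measured elsewhere in the family. Of 22 other Aux/IAA loci, 19 were tested, of which 9 were called higher and 7 lower, with a median absolute log2 change of 0.51, beside 0.26 for the 9 genes. Of all units, 32.2% were called higher and 43.8% lower. With spike-in scaling the counts were 5 higher and 11 lower of 19, where 16.1% of all units were called higher and 64.4% lower. Over all 28 tested members of the family, 13 were higher and 8 lower. The difference between the 9 genes and the other loci was not tested.

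Among the other Aux/IAA genes, IAA2 (Os01g0190300) rose by 1.98 ± 0.09, IAA18 (Os05g0523300) by 1.67 ± 0.08 and IAA16 (Os05g0186900) by 1.43 ± 0.13. The largest falls were those of Os06g0355300, at -1.96 ± 0.06, IAA25 (Os08g0109400), at -1.81 ± 0.06, and IAA10 (Os02g0817600), at -1.15 ± 0.07. These 6 loci had limma adjusted p between 4.4e-08 and 2.03e-05, groups that did not overlap, and the same call under all 5 scalings.

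ARFs are the transcription factors that Aux/IAA proteins bind. Of 22 tested ARF loci, 16 were called lower and 5 higher, with a median change of -0.36, against -0.09 over all units, of which 43.8% were called lower and 32.2% higher. Spike-in scaling gave 17 lower and 1 higher, where 64.4% of all units were called lower and 16.1% higher. ARF24 (Os12g0479400) averaged -1.15 at 1 mM and 0.64 at 0.005 mM, a change of -1.79 ± 0.04, and ARF10 (Os04g0519700) changed by -1.67 ± 0.17. The auxin receptor loci split: Os04g0395600 was called higher at 0.35 ± 0.05, a call lost without scaling and with spike-in scaling (-0.03), and Os05g0150500 was called lower at -0.29 ± 0.08.

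Of 5 GH3 loci, whose enzymes inactivate auxin by joining it to amino acids and which are commonly used as auxin response genes, 4 were called lower and 1 higher. GH3.1 (Os01g0785400) changed by -1.49 ± 0.11 and Os11g0528700 by -1.27 ± 0.12. The count of lower calls was also 4 without scaling, where 59% of all units were called lower. It was 4 with spike-in scaling too, where 64.4% of all units were. Both settings move all changes downward, so they put little strain on a lower call. Of 3 tested loci for auxin synthesis and oxidation, Os01g0169800 rose by 0.75 ± 0.05 and the others, DAO and YUCCA1, did not pass (-0.02 and -0.17). The listed LBD locus had no probe named for it on the array and could not be tested. Together these auxin pathway lists held 21 lower and 8 higher calls of 32 tested loci, where 43.8% of all units were called lower and 32.2% higher.

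**Figure D4:**
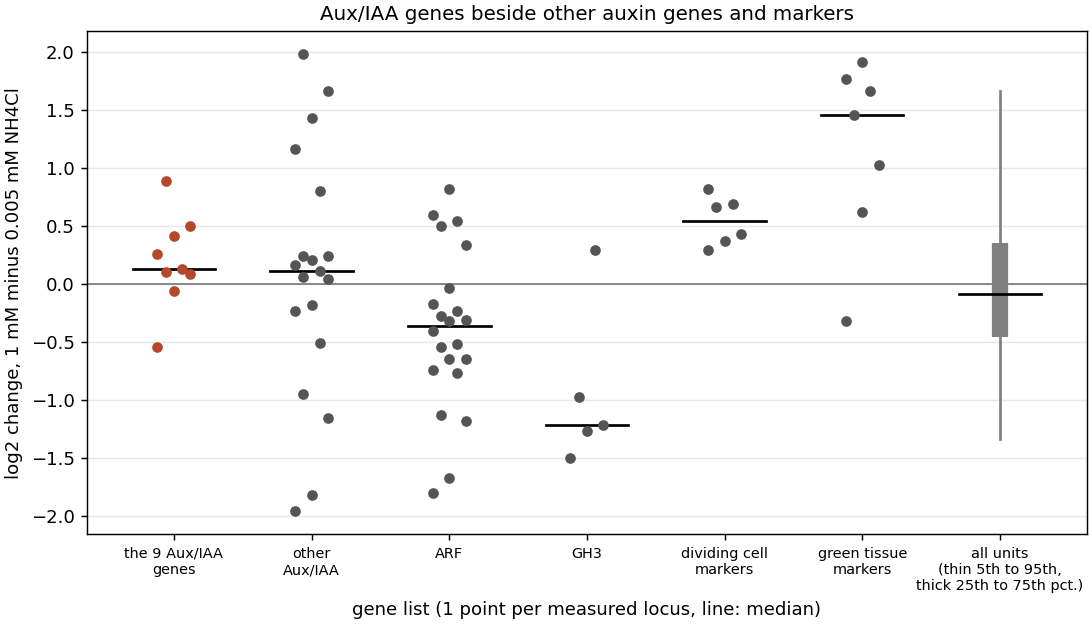
Log2 change, 1 mM minus 0.005 mM NH4Cl (vertical axis), of the 9 Aux/IAA genes and of other gene lists (horizontal axis). Each point is a measured locus and each line the list's median; the bar at the right spans the 5th to 95th percentile of all 24981 units, thick between the 25th and 75th. The 9 genes lie between -0.54 and 0.89, the other Aux/IAA loci between -1.96 and 1.98, and 4 of the 5 GH3 loci at or below -0.97.

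Markers of other cells differed between the groups as well. All 6 markers of dividing cells were called higher at 1 mM, with a median change of 0.55. Of all units, 32.2% were called higher and 43.8% lower. The sum of their scaled linear signals ranged from 8.55 to 8.91 on the 1 mM arrays and from 5.85 to 6.30 on the 0.005 mM arrays. With spike-in scaling 3 of the 6 were called higher, where 16.1% of all units were. Of 7 loci listed for green tissue 6 were called higher and 1 lower, and their summed signal ranged from 206 to 244 on the 1 mM arrays and from 75.3 to 90.8 on the 0.005 mM arrays. All 7 were well above background on all 8 arrays.

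The 4 root markers were also well above background on all 8 arrays. Of them 1 was called higher and 3 lower, where 32.2% of all units were called higher and 43.8% lower. Their summed signal ranged from 125 to 131 on the 1 mM arrays and from 114 to 123 on the 0.005 mM arrays. The higher sum at 1 mM rested on Os02g0662000 alone, which changed by 0.94 ± 0.07. The other 3 root markers changed by -0.99 to -0.32. Marker sums were not taken under the other scalings, so the direction of the root sum under them was not tested. Of the 3 seed markers, Os02g0249800 was above background on no array and GluA1 only on the 4 arrays at 1 mM. GluA1 thus passed the filter only through the group where it is high. Its call as higher is therefore not read as a measured change. GluA2, above background on all 8 arrays, was called lower (-0.54 ± 0.06). The summed signal of these 2 tested seed markers, most of it from GluA2, ranged from 0.0876 to 0.0979 at 1 mM and from 0.113 to 0.125 at 0.005 mM. The part of these cell types in the Aux/IAA changes was not tested.

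The 3 loci whose levels over the 8 arrays followed those of IAA23 most closely were Os07g0198300, Os09g0320100 and Os06g0482500, with Pearson's r of 0.998 for each. The 8 arrays form 2 groups that these loci and IAA23 all separate, and 102 units had an r above 0.99. The likeness is a description only. Os07g0198300 averaged 2.16 ± 0.14 at 1 mM and 1.15 ± 0.05 at 0.005 mM (SD, n = 4 each).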

How the data were processed

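Per the file headers, Agilent Feature Extraction 10.10.1.1 wrote the deposited array files, which hold spot intensity on a linear scale. The processed signal was already background-corrected. Log2 of it minus the array's 75th percentile over non-control spots was used here. Outlier-flagged spots were dropped, a probe was kept if well above background on at least 4 of 8 arrays, and the brightest kept probe stood for its locus. Testing used lmFit and eBayes of limma 3.58.1 (R 4.3.3), with Benjamini-Hochberg adjustment over 24981 units and a threshold of 0.05. Functions were tested on simulated data. The submitters give no pairing of replicate numbers. Deviations of same-numbered arrays correlated at 0.32, -0.01, 0.10 and 0.08, against at most 0.101 between arrays of different numbers. Only replicate 1 stood clearly above that, and the arrays were not treated as pairs. A fit with the replicate number as a block is given below.

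Each spot of the authors' deposited table has a log2 ratio and significance as p-value and q-value. Its 8 columns of signals per array were not used.

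The members and lists were chosen with earlier results of these data known. Locus and symbol pairs were written from general knowledge, and 70 of 88 symbols were found in a RefSeq gene table (assembly ASM3414082v1) on the chromosome named by the locus, including all 9 members. The remaining loci are printed without a symbol. Named genes were the 9 members, the 3 largest called changes in each direction among other Aux/IAA loci, the 2 largest called absolute changes of each other auxin list, and the 3 loci most correlated with IAA23. IAA12 was added for its position, and DAO, YUCCA1, the seed markers and the root marker Os02g0662000 were named after their values were seen. Alternatives covered scaling, background correction, filters, probe choice, variance settings, a replicate block and each array left out. No sequence was used here.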

Additional observations from a re-analysis of the deposited data

How the results depend on the processing

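Over 20 alternative settings, neither sign nor call changed for 154 of 180 member values, including all those of IAA23 and IAA20. Without scaling the members held 1 higher and 2 lower calls, against 4 and 1, and with spike-in scaling 1 and 4. Of all units, 19.6% were higher and 59% lower without scaling, and 16.1% and 64.4% with spike-in scaling. The other Aux/IAA loci held 5 higher and 9 lower without scaling, and 5 higher and 11 lower with spike-in scaling, against 9 and 7. The auxin pathway lists held 4 higher (no scaling) or 2 higher (spike-in), against 8, and 23 lower under both settings, against 21. Of the members' probes, 2 were higher and 5 lower without scaling, and 2 higher and 7 lower with spike-in scaling, against 9 and 4. The share over all probes was not counted under those settings. With the mean of the kept probes 2 members were lower, where 44.3% of all units were. Changes reversed for IAA6 (-0.18), IAA9 (-0.16), IAA11 (-0.14) and IAA30 (-0.0078) without scaling, and for IAA6 (-0.29), IAA9 (-0.27), IAA11 (-0.25) and IAA30 (-0.12) with spike-in scaling. Both settings move all genes of an array by 1 value. IAA11 was called higher under 8 of the 20 settings. With 1 array left out, the members held 4 to 5 higher and 1 lower call, the other Aux/IAA loci 7 to 8 higher and 7 lower, and the auxin pathway lists 6 to 8 higher and 21 lower. Between 30.7% and 31.9% of all units were then called higher and between 42% and 44% lower. With the replicate block the members held 4 higher and 1 lower call and the other lists 8 and 7 (other Aux/IAA) and 8 and 21 (auxin pathway). That block gave 32.5% of all units higher and 44.1% lower. Normexp with quantile normalization was chosen after seeing the data, because the files hold the spots' median signal. The slide block was not run, as each group had its own slide. None of the 18 groups of 4 member values held an array set apart by Dixon's criterion.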
